A study of Homo sapiens with 6 samples.

Results

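The 60 genes described here encode proteins that carry a cell through the G2/M transition and mitosis: mitotic cyclins and kinases, spindle and kinetochore proteins, the anaphase machinery, cytokinesis factors and condensin. They were chosen by gene symbol from knowledge of the cell cycle. All 60 had a row among the 15379 symbols of the count table, and all 60 were among the 12056 genes that passed the filter on low counts. The RNA came from HaCaT, a spontaneously immortalised human keratinocyte line, which as a proliferating line is a limited model of skin. In 3 libraries the cells had been exposed to 41C for 1 hour each day over 3 days, and in the other 3 to 37C on the same schedule; the labels name no genetic change and no drug in either group. The labels do not say that the libraries of a group were separate cultures, so p-values measure the spread between these libraries, which may be technical. The time between the last exposure and RNA extraction is unstated in the labels.

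Cells that enter mitosis switch on CDK1, the kinase bound by cyclins A and B, whose activity condenses chromosomes and builds the spindle. Later the anaphase-promoting complex destroys securin, so that sister chromatids part. It also destroys the cyclins, so that CDK1 is shut off and the cell can leave mitosis and divide. Most of these transcripts are made late in the cycle. The MuvB complex, together with B-MYB and FOXM1, activates them, while the DREAM form of MuvB with a pocket protein represses them in resting cells. MuvB contacts a short promoter element, the cell cycle genes homology region (CHR), and the factor NF-Y binds CCAAT boxes upstream of it.

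The promoters are shown because the log2 changes of the members had mostly the same sign and because these elements are known to be shared by the class. RefSeq promoter windows (GRCh38.p14, 250 bases before to 50 after a transcript start) matched 51 of the 60 members, with 64 windows in all. The CHR was searched as TTTGAA or TTCGAA and the CCAAT box as CCAAT, on both strands; the 2 motifs can share bases. At least 1 window held CHR letters in 40 of the 51 members (78.4%), against 15.7% of the 9812 tested genes with a window. CCAAT letters were present in 42 members (82.4%) and in 43.7% of all those genes, and both motifs in 33 members (64.7%) and in 8.63%. A match is a description of letters and not a proven binding site. The 120 bases before the start of 7 members are given 5′ to 3′ on the strand of the gene, with motif letters in capitals (ATTGG is a CCAAT box on the other strand).
CCNB1 (chr5:69167030-69167149, plus strand): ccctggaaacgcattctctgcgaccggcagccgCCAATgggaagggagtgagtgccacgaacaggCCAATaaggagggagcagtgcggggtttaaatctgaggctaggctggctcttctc
CDK1 (chr10:60778358-60778477, plus strand, 1 of 2 windows): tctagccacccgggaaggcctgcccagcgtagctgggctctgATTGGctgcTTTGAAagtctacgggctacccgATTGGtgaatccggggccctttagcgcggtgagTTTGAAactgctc
CCNB2 (chr15:59105026-59105145, plus strand): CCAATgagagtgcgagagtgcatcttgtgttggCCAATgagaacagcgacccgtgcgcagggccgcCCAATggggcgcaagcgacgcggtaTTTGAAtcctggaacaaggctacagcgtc
PLK1 (chr16:23678769-23678888, plus strand): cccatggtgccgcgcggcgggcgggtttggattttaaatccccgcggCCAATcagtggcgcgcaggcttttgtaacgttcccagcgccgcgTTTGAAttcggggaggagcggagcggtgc
CDC20 (chr1:43358861-43358980, plus strand): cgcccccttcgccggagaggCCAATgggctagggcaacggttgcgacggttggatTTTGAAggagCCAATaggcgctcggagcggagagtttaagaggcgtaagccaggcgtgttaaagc
CKS1B (chr1:154974561-154974680, plus strand): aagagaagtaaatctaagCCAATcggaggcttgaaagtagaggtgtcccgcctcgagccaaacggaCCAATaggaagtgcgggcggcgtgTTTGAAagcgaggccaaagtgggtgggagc
MKI67 (chr10:128126424-128126543, minus strand): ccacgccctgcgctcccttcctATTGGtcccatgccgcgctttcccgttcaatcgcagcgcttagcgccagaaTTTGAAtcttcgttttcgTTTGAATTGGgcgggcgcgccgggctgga

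In CCNB2 and PLK1 the TTTGAA began at position -29 from the start (-1 is the last base before it), and in CKS1B at -30. The nearest CCAAT box began at -54 in CCNB2 and CKS1B and at -73 in PLK1. In MKI67 the letters of a TTTGAA and of a CCAAT box on the other strand overlapped by a base. CCNB1 had CCAAT letters at -87 and -55 and no CHR letters in its window, and the same window search found none in AURKB, CCNA2, CENPE, KIF20A, KIF2C, NCAPH, NEK2, PTTG1, SGO2 and UBE2S. Only TTTGAA and TTCGAA were searched, so a window without a match may still hold a CHR with other letters. Of the 59 CHR matches in all windows, 27 began 1 to 40 bases before a start, and of the 98 CCAAT matches 55 began 41 to 110 bases before it. Where windows of a gene overlap, the same letters are counted in each, as for the 3 CCAAT matches of PTTG1. These totals are therefore not counts of distinct sites. AURKA, BIRC5, BUB3, FOXM1, RACGAP1, TPX2, TTK, UBE2C and WEE1 had no entry.

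**Figure D1:**
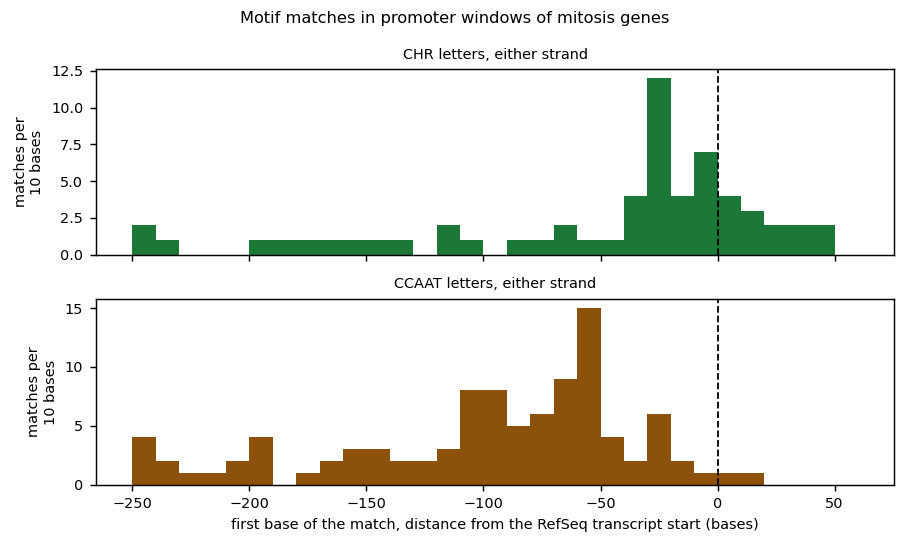
Matches to the CHR letters (top) and the CCAAT letters (bottom) in the 64 RefSeq promoter windows of 51 mitosis genes, counted per 10 bases of distance from the transcript start (dashed line). Of 59 CHR matches, 27 lay 1 to 40 bases before the start, and CCAAT matches gathered farther upstream, with 55 of 98 at 41 to 110 bases. Letters in overlapping windows of a gene are counted in each window.

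The libraries held 19659112 to 20856144 counts, and a member had 354 to 16546 counts per library. Levels are given as CPM, counts per 1000000 counts after TMM scaling. Of 10 keratinocyte markers all were tested, 4 rose at 41C (COL17A1, KRT14, KRT6A and LAMB3) and 0 fell, where 0.821% of all genes were higher and 0.265% lower. The summed level of the 10 markers was 8066 to 8455 CPM at 41C and 7060 to 7701 CPM at 37C. Their part in the lower mitosis transcripts was not tested. Melanocyte markers summed to 5.02 to 6.18 CPM at 41C and 4.93 to 5.09 CPM at 37C, fibroblast markers to 15.6 to 17.9 and 14.04 to 16.6 CPM, leukocyte markers to 14.1 to 17.3 and 14.7 to 18.7 CPM, and endothelial markers to 18.6 to 22.4 and 21.0 to 30.4 CPM. The defining leukocyte marker PTPRC had 0 to 2 counts at 41C and 0 to 1 at 37C, and the melanocyte marker DCT 0 to 2 and 1 to 2 counts. Some other markers of these lists had more counts. The leukocyte marker CD68 had 280 to 335 counts at 41C and 273 to 348 at 37C. The melanocyte markers MITF and PMEL had 67 to 75 and 32 to 61 counts at 41C, and 47 to 61 and 36 to 50 at 37C. The fibroblast marker COL3A1 had 251 to 306 and 202 to 259 counts, and the endothelial marker CDH5 334 to 414 and 368 to 526. The library 37C replicate 3 stood apart from the other 37C libraries in many of these genes, so the results are given with and without it. It was singled out by the values of these same genes, and omitting it lowers the log2 change of members in which it was low. Calls made without it are therefore descriptions and no independent support. In some members the 37C libraries fell stepwise instead, as in CENPE (65.4, 51.1 and 37.3 CPM in replicates 1, 2 and 3) and KIF20B (73.3, 60.6 and 43.5 CPM). Omitting 37C replicate 1 left 47 members negative with a median log2 change of -0.10, and 3 fell, where 0.856% of all genes were lower. Summed over the members, the level was 9360, 9420 and 9832 CPM in 41C replicates 1, 2 and 3, against 10743, 10565 and 9364 CPM in 37C replicates 1, 2 and 3. Thus 37C replicates 1 and 2 lay above all 3 libraries at 41C, whereas 37C replicate 3 lay among them. Of the 6 libraries, 37C replicate 1 was the highest for 30 members and 37C replicate 2 for 17, while 37C replicate 3 was the highest for 9 and the lowest for 21. Over all genes tested, 37C replicate 3 was the highest for 20.6% and the lowest for 23.3%, the largest shares of any library in both, and 37C replicate 1 was the highest for 19.2%. Libraries 41C replicates 1 and 2 were the highest for 0 members.

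**Figure D2:**
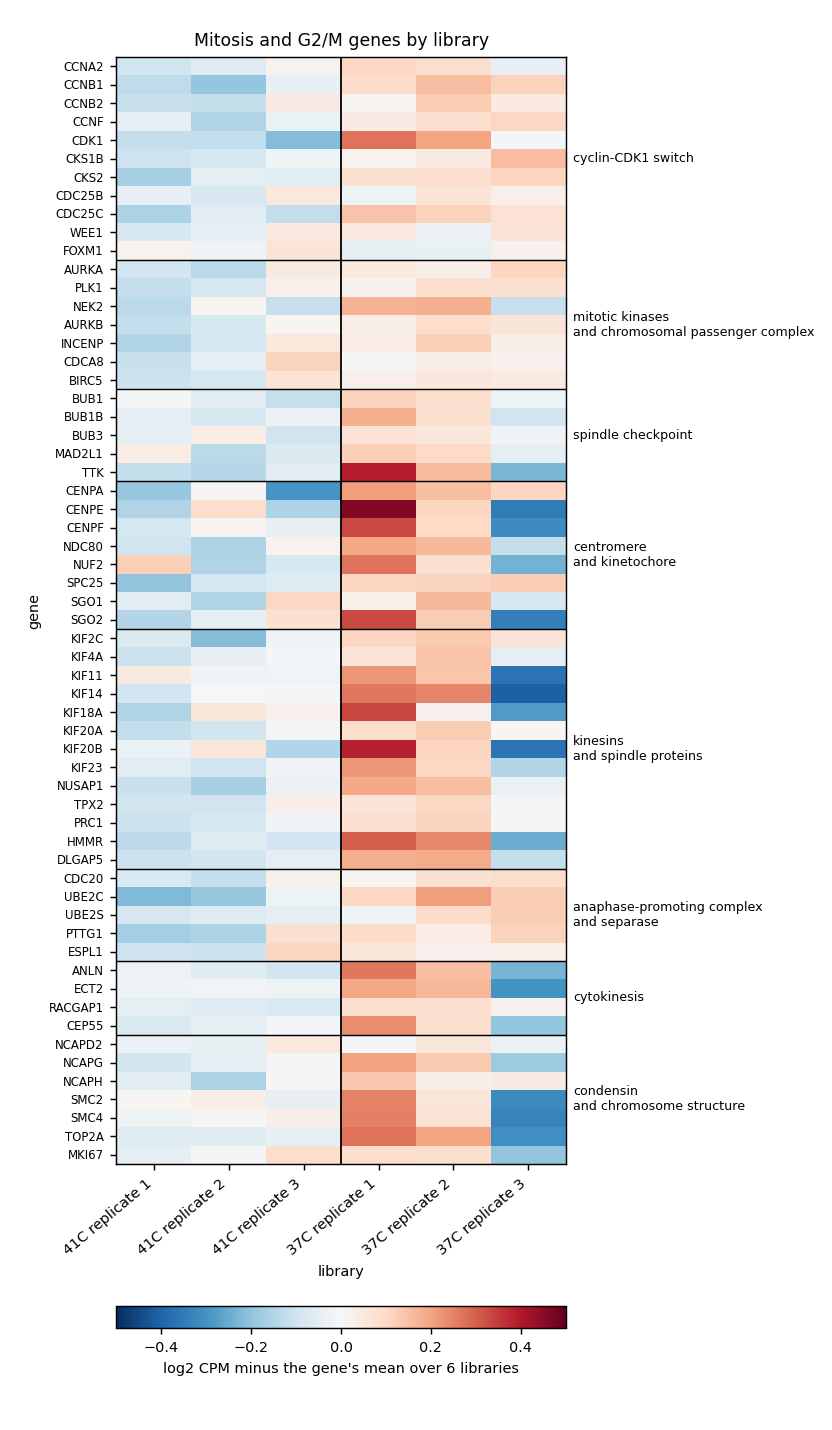
Level of each of the 60 mitosis genes (rows, grouped by role) in the 3 libraries at 41C (left) and the 3 at 37C (right), as log2 CPM minus the mean of the gene over 6 libraries; colours end at ±0.5. Most rows are blue at 41C and red in 37C replicates 1 and 2, and 37C replicate 3 is split, with the lowest value of 21 genes.

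The mitosis transcripts lay slightly lower after warming. At 41C 58 of the 60 members had a negative log2 change, against 49.1% of all genes tested, and the median over the members was -0.12 (0.92 of the 37C level), against 0.00 over all genes. Individually few changes were large enough to pass: CCNB1 (cyclin B1), CDK1 and the ubiquitin-conjugating enzyme UBE2C fell, and 0 members rose (edgeR quasi-likelihood test, adjusted over 12056 genes, threshold 0.05). These 3 of 60 (5.0%) compare with 0.265% of all genes that were lower and 0.821% that were higher. An unadjusted p under 0.05 with a lower level was found for 26 members, against 6.12% of all genes. In 16 members every library at 41C lay below every library at 37C, against 8.84% of all genes, and in 0 members above, against 11.2% of all genes. In 43 members all libraries at 41C lay below both 37C replicates 1 and 2, against 18% of all genes. DESeq2 gave 5 lower members, with CKS2 and KIF2C added, against 0.464% of all genes, and 0 higher, against 1.34%. The members share their libraries and are not independent of each other, so these shares describe the set and do not test it. In RNA from whole cultures, fewer cells in G2 and mitosis and less of these RNAs per cell cannot be told apart.

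The number of members that fell depended on which library was left out. It was 30 of 60 without 37C replicate 3, where 2.65% of all genes were lower, and 0 members rose, against 3.97% of all genes that were higher. It was 3 without 37C replicate 1, where 0.856% of all genes were lower, and 2 without 41C replicate 3 (CCNB1 and UBE2C), where 0.0904% were. It was 0 without 41C replicate 1 (0.0493% of all genes lower), without 41C replicate 2 (0.00823%) and without 37C replicate 2 (0.0576%). The calls over the whole table, 131 with all libraries, were 36, 5 and 17 in those last 3 fits, so few genes of any kind passed there. The median log2 change over the members stayed between -0.16 and -0.10 in these 6 fits. Of the 60 members 47 to 59 were lower, with 47 without 37C replicate 1 and 59 without 37C replicate 3. The median was -0.16 without 37C replicate 3.

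The genes that 37C replicate 3 set apart had AT-rich and long transcripts. On the log2 scale this library lay below the mean of 37C replicates 1 and 2 in 45 members, with a median difference of -0.11, against 47.5% of all genes and a median of 0.01. Across the 60 members this difference followed the GC content of the transcript (Pearson r = 0.75, Spearman rho = 0.79) and log2 gene length (r = -0.56, rho = -0.55); the members share the 3 libraries, so these are descriptions. Over the whole table Spearman's rho was 0.52 with GC content and -0.33 with length. In 21 members 37C replicate 3 lay below every library at 41C, and these had a median GC content of 38.4% and a median length of 5016 bases. In the 22 members where it lay above every library at 41C the medians were 47.7% and 2094.5 bases. What set this library apart was not tested. With each library corrected for its trend on GC content, 7 members fell, where 1.11% of all genes were lower and 3.1% higher: CCNB1, CDK1, CENPA, KIF20A, KIF2C, NUSAP1 and UBE2C. With the same correction for length 2 fell, CCNB1 and CDK1, where 0.299% of all genes were lower and 0.647% higher.

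**Figure D3:**
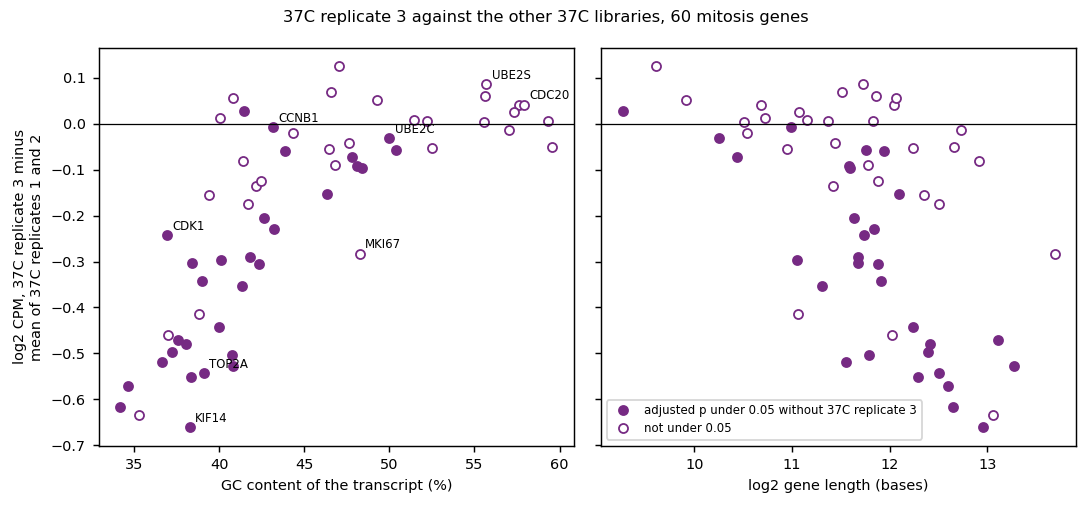
Difference of 37C replicate 3 from the mean of 37C replicates 1 and 2 (log2 CPM) for the 60 mitosis genes, against transcript GC content (left) and log2 gene length (right). Filled points are the 30 genes with an adjusted p under 0.05 when this library is left out; the difference is near 0 for GC-rich genes such as CDC20 and reaches -0.66 in KIF14.

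Among the cyclins, CDK1 and their regulators, 2 of 11 members fell, 10 had a negative change, and the median log2 change was -0.14. Beside these counts and those of the groups below, 0.265% of all genes were lower and 49.1% had a negative change. CCNB1, the cyclin that drives entry into mitosis, had 238, 228 and 254 CPM at 41C, against 277, 290 and 282 CPM at 37C. The groups did not overlap, and the gene fell to 0.848 of the 37C level (log2 change -0.24 ± 0.05, SE; edgeR adjusted p = 0.0212). CDK1, the mitotic kinase itself, had 94.9, 94.7 and 88.7 CPM at 41C, against 124, 118 and 102 CPM at 37C. It fell to 0.808 (-0.31 ± 0.07, edgeR adjusted p = 0.0384; without 37C replicate 3 -0.38 ± 0.05, edgeR adjusted p = 4.3e-06). Neither gene passed when 41C replicate 1, 41C replicate 2 or the second 37C library was omitted: the edgeR adjusted p of CCNB1 was 0.141, 0.230 and 0.204. For CDK1 the edgeR adjusted p was 0.156, 0.206 and 0.235 in those fits, and 0.165 without 41C replicate 3. Over 19 other settings the edgeR, limma or DESeq2 adjusted p was 0.00067 to 0.230 for CCNB1 and 2.2e-06 to 0.235 for CDK1.

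CKS2, a small partner subunit of CDK1, had 193, 211 and 209 CPM at 41C, against 229, 230 and 234 CPM at 37C (log2 change -0.18 ± 0.05, edgeR adjusted p = 0.0806; 0.0182 without 37C replicate 3). Its paralogue CKS1B also had groups that did not overlap, at 134, 136 and 142 CPM at 41C and 146, 148 and 161 CPM at 37C (-0.14 ± 0.05, edgeR adjusted p = 0.222). CDC25C, a phosphatase that activates CDK1, averaged 26.8 ± 1.0 CPM at 41C and 31.3 ± 0.75 CPM at 37C (SD, n = 3 each; -0.22 ± 0.07, edgeR adjusted p = 0.166). CDC25B, another phosphatase of CDK1, and WEE1, the kinase that inhibits it, had changes of -0.05 each. FOXM1, the transcription factor that activates many late cell cycle genes, was the member with the highest change: it had 322, 315 and 333 CPM at 41C, against 309, 310 and 323 CPM at 37C. Those ranges overlapped (0.04 ± 0.04, edgeR adjusted p = 0.723). FOXM1 shares 15.9% of its annotated exon bases with ITFG2 on the opposite strand. CCNB2 (cyclin B2), CCNA2 (cyclin A2) and CCNF (cyclin F, a ubiquitin ligase subunit) had changes of -0.13, -0.10 and -0.15, and of these only CCNF had groups that did not overlap.

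**Figure D4:**
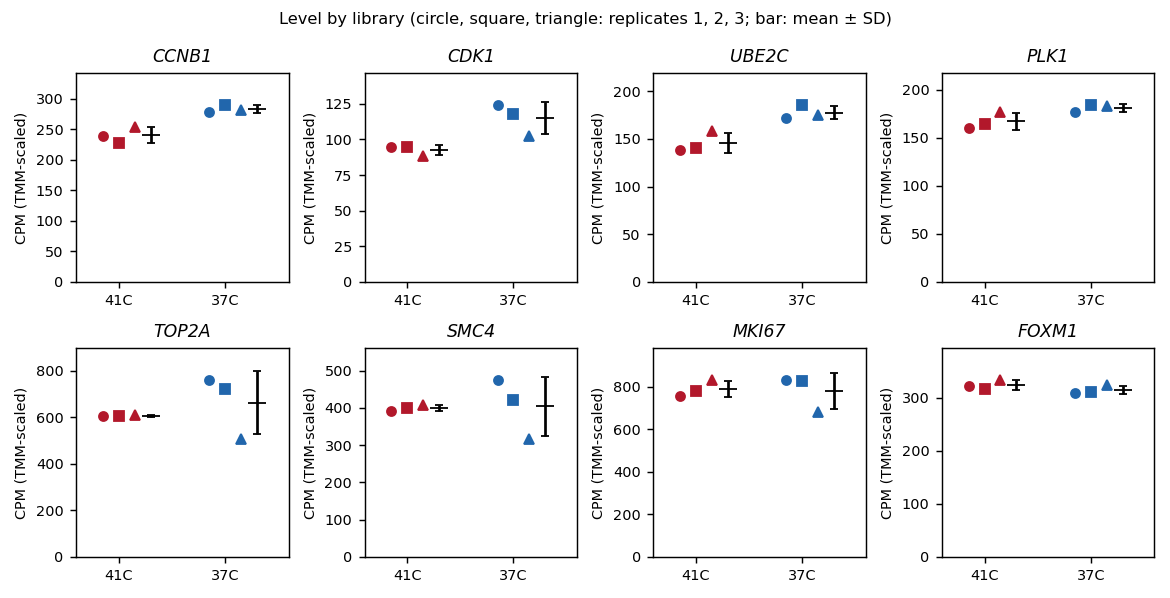
CPM of 8 mitosis genes in the 3 libraries at 41C (left of each panel, red) and the 3 at 37C (right, blue), with mean ± SD; circles, squares and triangles are replicates 1, 2 and 3. CCNB1, CDK1 and UBE2C do not overlap between temperatures, whereas 37C replicate 3 (triangle) lies below all libraries at 41C for TOP2A, SMC4 and MKI67.

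The mitotic kinases and the chromosomal passenger complex, which corrects faulty attachments of chromosomes to the spindle, had a median log2 change of -0.12, with 7 of 7 negative and 0 past the threshold. AURKB, the kinase of the complex, had 119, 122 and 130 CPM at 41C, against 133, 138 and 135 CPM at 37C. The groups did not overlap (-0.13 ± 0.05, edgeR adjusted p = 0.280). PLK1, the Polo kinase, had 160.3, 164 and 177 CPM at 41C, against 176, 184 and 183 CPM at 37C (-0.12 ± 0.05, edgeR adjusted p = 0.296). Its groups met at one library each, 41C replicate 3 and 37C replicate 1. AURKA, the spindle-pole Aurora kinase, and INCENP, the scaffold of the passenger complex, both had a change of -0.12, while BIRC5 (survivin) and CDCA8 (borealin), other subunits of that complex, had -0.08 and -0.03. NEK2, a centrosomal kinase, was the one gene of this group that fell without 37C replicate 3, where 2.65% of all genes were lower. Its change was -0.25 ± 0.06 in that fit (edgeR adjusted p = 0.0106) and -0.16 ± 0.08 with all libraries (edgeR adjusted p = 0.374).

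The spindle checkpoint holds anaphase until every kinetochore is attached. Its 5 genes had a median log2 change of -0.11, all 5 negative and 0 past the threshold. Without 37C replicate 3 BUB1B and TTK fell, where 2.65% of all genes were lower. BUB1, a checkpoint kinase at the kinetochore, had 112, 108 and 104 CPM at 41C, against 121, 119 and 110.1 CPM at 37C (-0.12 ± 0.05, edgeR adjusted p = 0.349). BUB1B (BubR1) and MAD2L1 (MAD2), which form the inhibitor of the anaphase-promoting complex, had -0.11 ± 0.06 each, and BUB3 had -0.07 ± 0.05. Without 37C replicate 3 the change of BUB1B was -0.18 ± 0.05 (edgeR adjusted p = 0.0229). TTK, the kinase at the top of the checkpoint, had 50.8, 50.1 and 53.1 CPM at 41C, against 72.5, 61.7 and 47.2 CPM at 37C. The libraries at 41C were alike, and those at 37C spread around them. The change of TTK was -0.24 ± 0.15 (edgeR adjusted p = 0.555), and -0.39 ± 0.06 without 37C replicate 3, where it fell (edgeR adjusted p = 0.000128). Across 19 other settings it ran from -0.39 to -0.09, with an edgeR, limma or DESeq2 adjusted p of 9.7e-05 to 0.773.

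Of the 8 centromere and kinetochore genes all had a negative change, with a median of -0.13, and 0 passed. Without 37C replicate 3 the median was -0.25 and 4 of 8 fell (CENPA, CENPF, NDC80 and SGO2), where 2.65% of all genes were lower. Without 37C replicate 1 the median was -0.03. CENPA, the histone H3 variant that marks centromeres, had 26.9, 31.0 and 25.0 CPM at 41C, against 35.5, 34.0 and 33.1 CPM at 37C. These groups did not overlap, and the change of -0.31 ± 0.08 was among the lowest of all members (edgeR adjusted p = 0.0898; 0.00997 without 37C replicate 3). CENPA shares 7.0% of its annotated exon bases with SLC35F6 on the same strand. SPC25, a subunit of the NDC80 complex that grips microtubules, had 25.8, 27.8 and 28.3 CPM at 41C, against 31.8, 31.9 and 32.2 CPM at 37C (-0.23 ± 0.07, edgeR adjusted p = 0.150). Its partners NDC80 and NUF2 had changes of -0.16 ± 0.08 and -0.09 ± 0.12. In NUF2, CENPE, a kinetochore kinesin, CENPF, a large kinetochore protein, and SGO2, a protector of centromeric cohesion, 37C replicate 3 was the lowest of the 6 libraries; CENPF had 208, 223 and 215 CPM at 41C, against 277, 237 and 178 CPM at 37C. SGO1, the other shugoshin, had the fewest counts of the members and 18.7 ± 1.7 CPM at 41C and 19.6 ± 1.7 CPM at 37C (SD, n = 3 each; -0.07 ± 0.10, edgeR adjusted p = 0.808).

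The 13 kinesins and spindle proteins all had negative changes, with a median of -0.12. None passed in the fit of all libraries. Without 37C replicate 3, 11 fell, where 2.65% of all genes were lower, and the median of the group was -0.22. KIF2C, which removes tubulin from microtubule ends at kinetochores, had 124, 112 and 129 CPM at 41C, against 140.2, 143 and 136 CPM at 37C, with no overlap (-0.20 ± 0.06, edgeR adjusted p = 0.0934). KIF20A, a kinesin of the spindle midzone, had 234, 238 and 253 CPM at 41C, against 270.1, 278 and 256 CPM at 37C, also without overlap (-0.15 ± 0.05, edgeR adjusted p = 0.152). NUSAP1, which bundles spindle microtubules, had 82.5, 79.6 and 87.4 CPM at 41C, against 102, 99.2 and 87.1 CPM at 37C (-0.21 ± 0.06, edgeR adjusted p = 0.139). The midzone bundler PRC1 (-0.13 ± 0.05) did not overlap between temperatures, while TPX2, which activates AURKA on the spindle, did (-0.11 ± 0.05).

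The widest gap between the 2 fits in this group was that of KIF14, a kinesin of the central spindle, at -0.10 ± 0.18 with all libraries and -0.29 ± 0.06 without 37C replicate 3. HMMR, a spindle protein, had 101, 106 and 103 CPM at 41C, against 136, 130.3 and 92.8 CPM at 37C. Its change was -0.21 ± 0.14 with all libraries (edgeR adjusted p = 0.591) and -0.36 ± 0.05 without 37C replicate 3 (edgeR adjusted p = 4.8e-06). Across 19 other settings the change of HMMR ran from -0.36 to -0.12, with an edgeR, limma or DESeq2 adjusted p of 2.8e-06 to 0.833. KIF11, the kinesin that pushes spindle poles apart, had 109.7, 105 and 105 CPM at 41C, against 124, 117 and 82.3 CPM at 37C (-0.02 ± 0.15; -0.18 ± 0.05 without 37C replicate 3). In DLGAP5, KIF14, KIF18A, KIF20B and KIF23 too, 37C replicate 3 was the lowest of all 6 libraries. KIF4A, a chromosome-bound kinesin, has a near-identical intronless copy, KIF4B, so its value of -0.11 ± 0.05 is uncertain.

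The anaphase-promoting complex tags cyclin B and securin for destruction. The 5 genes here encode its activator, 2 enzymes that work with it, securin and separase. Of these 1 fell, where 0.265% of all genes were lower. All had a negative change, against 49.1% of all genes, and the median was -0.13. UBE2C, the enzyme that starts ubiquitin chains for this complex, had 138, 141 and 158 CPM at 41C, against 172, 186 and 175 CPM at 37C. It fell to 0.819 of the 37C level with no overlap (-0.29 ± 0.06, edgeR adjusted p = 0.0192). The call was lost with the length correction (edgeR adjusted p = 0.0587) and when 41C replicate 1, 41C replicate 2 or the second 37C library was omitted (0.156, 0.205 and 0.174); over 19 settings it was 3.3e-05 to 0.205. UBE2S, which lengthens the chains, had 151, 153 and 155 CPM at 41C, against 158, 171 and 174 CPM at 37C, again without overlap (-0.13 ± 0.05, edgeR adjusted p = 0.254). CDC20, the activator of the complex and its link to the checkpoint, had 280.2, 272 and 299.8 CPM at 41C, against 298, 311 and 314 CPM at 37C (-0.12 ± 0.05, edgeR adjusted p = 0.281). PTTG1, the securin, had -0.16 ± 0.06 (it has near-identical gene copies, so the value is uncertain), and ESPL1, the separase that it blocks, had -0.07 ± 0.06. 

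Cytokinesis completes division. Its 4 genes had negative changes with a median of -0.11, and 0 passed with all libraries. Without 37C replicate 3, 4 of 4 fell, where 2.65% of all genes were lower. In that fit the group's median was -0.20, and with 37C replicate 1 omitted instead it was -0.02. RACGAP1, part of the centralspindlin complex, had 189, 186 and 185 CPM at 41C, against 206, 206 and 198 CPM at 37C, with no overlap (-0.12 ± 0.04, edgeR adjusted p = 0.200). ECT2, the exchange factor that it recruits to the cell equator, had 158, 159 and 158 CPM at 41C, against 184, 180.5 and 131 CPM at 37C. The SD was 0.548 CPM at 41C and 29.8 CPM at 37C (-0.06 ± 0.13; -0.20 ± 0.04 without 37C replicate 3, edgeR adjusted p = 0.00426). ANLN (anillin), a scaffold of the contractile ring, had 355, 346 and 338 CPM at 41C, against 433, 401 and 307 CPM at 37C. Its change was -0.14 ± 0.13 with all libraries (edgeR adjusted p = 0.718) and -0.27 ± 0.04 without 37C replicate 3 (edgeR adjusted p = 6.3e-05). Across 19 other settings the change of ANLN ran from -0.27 to -0.04, with an edgeR, limma or DESeq2 adjusted p of 4.0e-05 to 0.909. CEP55, which brings in the abscission machinery, had -0.09 ± 0.09 with all libraries and -0.20 ± 0.05 without 37C replicate 3.

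Condensin, which compacts mitotic chromosomes, TOP2A, which untangles them, and the proliferation marker MKI67 formed the last group. Of the 7 genes 6 had a negative change and 0 passed. Their median log2 change was -0.01 with all libraries, -0.15 without 37C replicate 3 and 0.01 without 37C replicate 2. When 37C replicate 3 was left out 4 fell (NCAPG, SMC2, SMC4 and TOP2A), where 2.65% of all genes were lower. TOP2A had 604, 604 and 611 CPM at 41C, against 760.1, 721 and 508 CPM at 37C. Its libraries at 41C lay between 37C replicate 3 and the other 37C libraries (-0.13 ± 0.16, edgeR adjusted p = 0.795; -0.29 ± 0.04 and 8.0e-06 without 37C replicate 3). Across 19 other settings the change of TOP2A ran from -0.29 to -0.02, with an edgeR, limma or DESeq2 adjusted p of 3.1e-06 to 0.971. The condensin core subunits SMC4 and SMC2 both had -0.01 with all libraries, with SEs of 0.15 and 0.14, and -0.16 and -0.15 without 37C replicate 3, where both fell. Of the condensin I subunits, NCAPH had -0.13 ± 0.06, NCAPG -0.11 ± 0.08 and NCAPD2 -0.01 ± 0.04. NCAPG shares 33.1% of its annotated exon bases with LCORL on the opposite strand, and SMC4 18.5% with TRIM59; no source read here says whether counting used strand. MKI67, the member with the most counts, had 756, 778 and 830.1 CPM at 41C, against 831, 827 and 681 CPM at 37C (0.02 ± 0.08, edgeR adjusted p = 0.960; -0.07 ± 0.04 and 0.330 without 37C replicate 3).

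**Figure D5:**
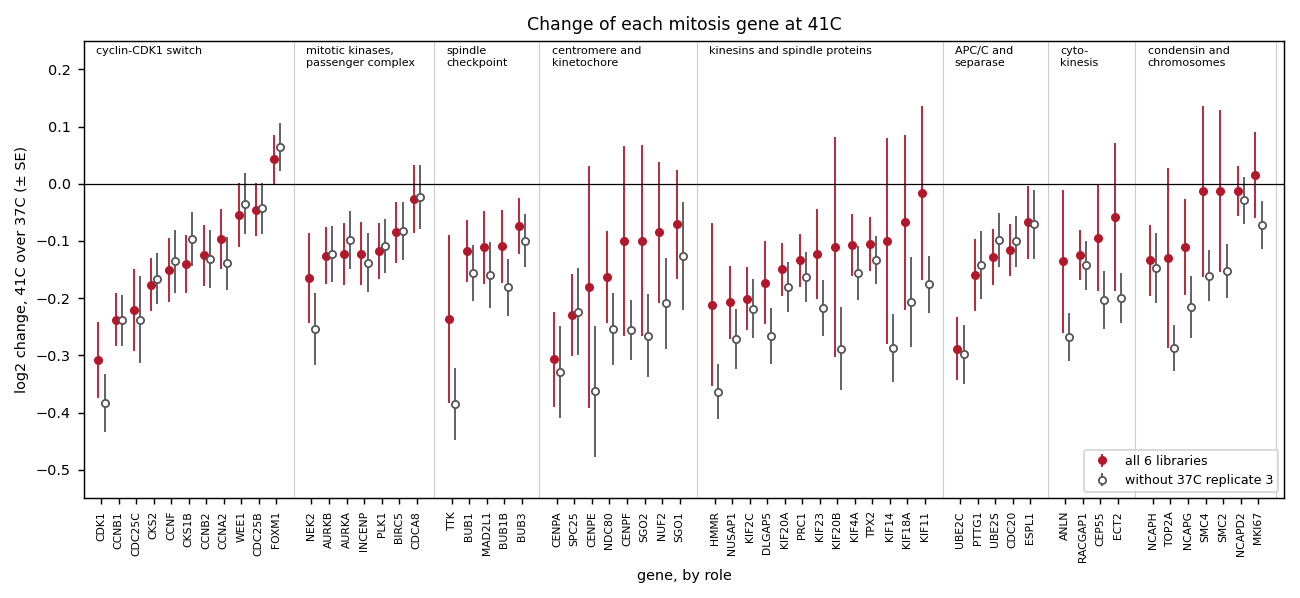
Log2 change at 41C over 37C (± SE) of each of the 60 mitosis genes, grouped by role, with all 6 libraries (filled) and without 37C replicate 3 (open). All but FOXM1 and MKI67 lie below 0 with all libraries, and all but FOXM1 without 37C replicate 3; APC/C is the anaphase-promoting complex.

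Per length, the members spanned a wide range of levels. In the authors' FPKM (counts per kilobase of gene length and per 1000000 counts), CKS2 was the highest at 330 ± 14 FPKM at 41C and 377 ± 2.2 FPKM at 37C (SD, n = 3 each), followed at 37C by CKS1B at 196 ± 8.9 and CDC20 at 188 ± 3.8 FPKM, which overlap within their SDs. UBE2C, with 118 ± 7.9 FPKM at 41C and 146 ± 5.5 FPKM at 37C, and CCNB1, with 117 ± 5.7 and 140.3 ± 2.7 FPKM, were the fifth and the sixth at 37C. CDK1 lay in the middle, at 27.1 ± 1.2 FPKM at 41C and 33.9 ± 3.5 FPKM at 37C. SGO1 was the lowest, at 3.19 ± 0.27 FPKM at 41C and 3.40 ± 0.30 FPKM at 37C.

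Negative changes were also more common than positive ones among other mitosis genes. Of 55 further mitosis genes 1 fell and 0 rose, where 0.265% of all genes were lower and 0.821% higher. Of the 55, 48 had a negative log2 change, against 49.1% of all genes, and the median was -0.08. The one that fell was FAM83D, a spindle protein, at 95.7, 100.2 and 105 CPM at 41C, against 116, 123 and 117 CPM at 37C (-0.24 ± 0.05, edgeR adjusted p = 0.0387; 0.0019 without 37C replicate 3). Without 37C replicate 3, 14 of the 55 fell and 0 rose, where 2.65% of all genes were lower and 3.97% higher. Of 39 genes of DNA replication and the G1/S transition, 0 passed, 16 had a negative change, and the median was 0.02; without 37C replicate 3, 5 rose, where 3.97% of all genes were higher, and 0 fell. Those that rose included CCND1 (cyclin D1) and MCM2, a subunit of the replicative helicase. CCND1 had 481, 488 and 484 CPM at 41C, against 437, 413 and 453 CPM at 37C (0.16 ± 0.04, edgeR adjusted p = 0.0927; 0.00281 without 37C replicate 3). MCM2 had 454, 454 and 464 CPM at 41C, against 403, 410.3 and 432 CPM at 37C (0.14 ± 0.04, edgeR adjusted p = 0.128; 0.0071 without 37C replicate 3). Whether the G1/S and mitosis lists differ from each other was not tested.

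Of 23 tested genes for MuvB subunits, pocket proteins and inhibitors of cyclin-dependent kinases, 0 passed and the median was 0.01. CDKN1A (p21), the inhibitor induced by p53 and by many stresses, had 88.6, 92.2 and 88.0 CPM at 41C, against 80.5, 83.6 and 89.1 CPM at 37C (0.09 ± 0.06, edgeR adjusted p = 0.528). CDKN3, a phosphatase that removes the activating phosphate from CDKs, and the checkpoint kinase CHEK2 had the smallest p of this list, with -0.17 ± 0.08 and -0.15 ± 0.07 (edgeR adjusted p = 0.337 and 0.368). Members with CHR letters in a promoter window had a median log2 change of -0.11 (n = 40) and those with a window and none had -0.15 (n = 11). Without 37C replicate 3 both medians were -0.18, and the difference was not tested.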

How the data were processed

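Per the labels' protocols, total RNA was taken and libraries came from a TruSeq mRNA kit that marks strand. The submitters' processing notes list Trimmomatic 0.36, HISAT2 and GRCh38.p13. No source read here gives the read counter, its annotation or its strand setting. Exons of 12 members overlap a gene of the opposite strand. Those of 2 members overlap a gene of the same strand: BUB1B with BUB1B-PAK6 (10.2% of its exon bases) and CENPA with SLC35F6 (7.0%). The authors deposited raw counts per gene symbol. The authors' FPKM values were those counts per kilobase and per 1000000 counts, within 0.01% for 100% of nonzero values.

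Counts were filtered with filterByExpr, scaled by TMM and tested for 41C over 37C with edgeR 4.0.16 (robust quasi-likelihood, two-sided, R 4.3.3); p-values were Benjamini-Hochberg adjusted over 12056 genes, threshold 0.05, and none was adjusted over a list. With 3 libraries against 3, an exact permutation test of a gene cannot go below 0.1. Alternatives were DESeq2 1.42.0, limma 3.58.1 (voom, and log2(FPKM + 1) or log2(FPKM + 0.1)), other scaling factors and filters, a replicate block, a length correction and each library left out. Corrections for GC content, and both corrections without 37C replicate 3, were added after the data were seen. GC content came from the longest GENCODE 29 transcript (97.3% of symbols, 60 of 60 members). The tests were tried on simulated data. The named genes were members past the threshold, the 3 with the smallest p in each of 8 role groups, those with the highest and lowest change and the most and fewest counts, and 9 fixed by name; others were named after their values were seen. Members and lists were chosen with earlier results of these data known.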

Additional observations from a re-analysis of the deposited data

How the results depend on the processing

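The negative median of the 60 members held in all 19 alternatives, at -0.16 to -0.10, and 47 to 59 members were negative. The number that passed was less stable. Of 60 members, 3 passed with limma-voom, DESeq2 size factors, upper-quartile factors or when genes needed 1 CPM in 3 libraries, 5 with DESeq2, 6 with no filter, 7 with the GC correction, 2 with the length correction and 0 with log2(FPKM + 1) or log2(FPKM + 0.1). Leaving out 1 library gave 0 to 30, and omitting 37C replicate 3 under the GC or length correction gave 21 and 29. Whole-table calls were 131, and 217 with DESeq2, 284 with no filter, 11 and 40 with log2(FPKM + 1) and log2(FPKM + 0.1), 497 with the GC correction, 5 to 805 with 1 library left out, and 742 and 1029 without 37C replicate 3 with the GC or length correction. With upper-quartile factors 57 were higher and 53 lower, against 99 and 32 with TMM. Labels share replicate numbers, and the deviations of same-numbered libraries correlated weakly (r = 0.08, -0.02 and 0.08). Still, 4 of 6 libraries correlated best with their own number. Whether same-numbered libraries shared a culture or a batch is not stated in the labels and was not tested. With the replicate block 6 members and 438 genes passed.

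Of the other mitosis genes (1 passed), 3 passed with no filter or the replicate block, 0 in either FPKM fit, 6 with the GC correction, 0 to 14 with 1 library left out, and 11 and 14 with the GC and length corrections without 37C replicate 3. Of the G1/S genes (0 passed), 1 passed with DESeq2 or no filter, 4 with the replicate block, 5 with the GC correction, 0 to 5 with 1 library left out, and 6 and 5 with those corrections without 37C replicate 3. Of the MuvB and inhibitor genes (0 passed), 0 to 1 passed with 1 library left out and 2 under the length correction with 37C replicate 3 omitted. These counts take calls in either direction, and calls over all genes moved too. They were 131 of 12056 genes in the main fit, 217 of 12056 with DESeq2 and 284 of 15379 with no filter. The replicate block gave 438 of 12056 and the GC correction 497 of 11812. Omitting 37C replicate 3 gave 805 of 12154, and 742 of 11903 and 1029 of 12154 with the GC and length corrections.

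Signs turned in 15 members that had not passed, and the cause was not tested. With limma-voom, the replicate block and the GC correction the log2 change was 0.0066, 0.0013 and 0.0099 for KIF11, 0.0058, 0.0033 and 0.0135 for SMC2, and 0.0065, 0.0046 and 0.0148 for SMC4. CDCA8 had 0.0055 with the length correction. MKI67 had -0.0042 with upper-quartile factors, -0.0242 with the length correction, and -0.0813 and -0.0697 with the GC and length corrections without 37C replicate 3; WEE1 had 0.0290 with the GC one. With 1 library left out the log2 change ran from -0.0912 to 0.0207 for CDCA8, -0.3631 to 0.0292 for CENPE, -0.2556 to 0.0491 for CENPF, -0.2092 to 0.0324 for NUF2, -0.2658 to 0.0488 for SGO2, -0.1759 to 0.0929 for KIF11, -0.2872 to 0.0067 for KIF14, -0.2063 to 0.0945 for KIF18A, -0.2881 to 0.0694 for KIF20B, -0.1993 to 0.0227 for ECT2, -0.0413 to 0.0097 for NCAPD2, -0.1528 to 0.1141 for SMC2, -0.1605 to 0.1144 for SMC4 and -0.0722 to 0.0576 for MKI67. A member had at least 354 counts per library, and the SE of the log2 change was 0.10 for SGO1, which had the fewest counts, and 0.05 for CCNB1.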
